A study of Mus musculus with 2 samples.

Results

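The cytosolic ribosomal protein genes encode the protein part of the ribosomes that translate the transcripts of the nucleus. They were chosen by symbol, as Rps or Rpl genes with a number and the stalk genes Rplp0, Rplp1 and Rplp2, without names of pseudogenes. This gave 82 of the 31053 genes of the matrix, 31 of the small subunit and 51 of the large subunit. The genes Rpsa and Fau also encode ribosomal proteins but fall outside these symbols, and they are given apart.

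A cytosolic ribosome carries 1 copy of nearly every one of its proteins, so the genes of both subunits are usually transcribed and translated together. Most of their transcripts begin with a short run of pyrimidines at the cap, the terminal oligopyrimidine (TOP) motif, through which Larp1 and the mTOR kinase hold or release their translation in response to nutrients and growth signals. Resting lymphocytes are known for a large share of ribosomal protein transcripts among few transcripts in all, and growing tumour cells for a high output of new ribosomes. Several of these genes have pseudogene copies or a paralogue that can take the place of the usual protein.

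The transcripts were read from tumours of mice whose strain label is NGS mouse, in a series whose title names triple negative breast cancer and inhibitors of ACSS2, while its design text names Bmal1 status. ACSS2 makes acetyl-CoA from acetate. Cells of 3 vehicle samples and 3 samples given the inhibitor (ACSS2i in the labels), 4000 to 6000 live cells from each, were loaded together on 1 lane of a droplet platform. Ages, doses and times are not given in the labels. Each sample carried 1 of 6 antibody tags, named D0, D1, D4, U2, U3 and U4, and no label says which tag was which arm. The vehicle and inhibitor arms were therefore not compared, the pool counts as 1 sample, and no difference below carries a test. Values per tag show the spread over the 6 samples, and 95% intervals cover counting error only.

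Barcodes were sorted into 5 gates by marker transcripts, in unique molecular identifiers (UMIs). The tumour gate asked for at least 3 UMIs of Krt8 and Krt18 and none of Ptprc and held 5215 barcodes. The T gates asked for at least 2 UMIs of the Cd3 chains with either Lef1 or Il7r (naive-like, 225 barcodes) or at least 2 of Nkg7 and Gzmb (effector, 241 barcodes). The macrophage gate asked for at least 3 UMIs of the C1q chains (398 barcodes), and the B gate for at least 2 of Cd79a and Cd79b (92 barcodes). The gates overlapped in 165 barcodes, 120 of them between the T gates, and these were left out of every gate. Depth differed strongly, with a median of 25142 UMIs per barcode in the tumour gate against 1451, 1873, 4326.5 and 1091.5 in the naive-like, effector, macrophage and B gates. Among markers that the gates did not use, a list of 7 T cell genes summed to 2167 CPM (UMIs per 1000000 gene UMIs) in naive-like T and 2325 in effector T barcodes against 2.94 in the tumour gate, 7 macrophage genes to 13198 in macrophage barcodes against 5.28, and 7 B cell genes to 1934 in B barcodes against 1.85. The B gate also held 1103 CPM of Jchain, a plasma cell gene, and the part of plasma cells was not tested. The macrophage gate held 776 CPM of Pf4, nearly all of the 781 CPM of a list of 3 platelet genes. The rest of that list, Ppbp and Itga2b, thus gave little, and Pf4 alone does not show platelets in this gate. The tumour gate had 1 UMI of Epcam, 6 of Cdh1, 3 of Krt7, 10 of Krt19 and none of Cldn4 among 139664340, with Sox9 at 760.1 and Dcn, a fibroblast gene, at 2579 CPM. Because these epithelial markers were at or near 0, it is called the keratin gate from here on.

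The start sites of 10 genes are shown first, because the TOP motif is the feature that ties most of this family together and because they include both copies of 2 paralogue pairs. Each line gives 15 bases before and 15 bases from the first transcribed base, in the direction of transcription, from RefSeq on GRCm38.p6. Capitals mark a run that starts with C at the first transcribed base and holds at least 5 pyrimidines (C or T).
Rps6, chr4:86857353-86857382, minus strand: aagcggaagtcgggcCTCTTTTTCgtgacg
Rplp2, chr7:141447636-141447665, plus strand: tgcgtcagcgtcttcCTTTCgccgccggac
Rps27, chr3:90213634-90213663, minus strand: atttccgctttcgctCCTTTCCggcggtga
Rpl15, chr14:18270972-18271001, minus strand: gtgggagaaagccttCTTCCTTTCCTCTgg
Rpl12, chr2:32961697-32961726, plus strand: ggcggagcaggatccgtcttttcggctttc
Rps2, chr17:24720048-24720077, plus strand: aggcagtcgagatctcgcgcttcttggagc
Rpl22, chr4:152325711-152325740, plus strand: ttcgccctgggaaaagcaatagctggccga
Rpl22l1, chr3:28805493-28805522, plus strand: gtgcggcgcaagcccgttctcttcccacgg
Rps27l, chr9:66946071-66946100, plus strand: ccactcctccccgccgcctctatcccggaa
Rpl7l1, chr17:46782642-46782671, minus strand: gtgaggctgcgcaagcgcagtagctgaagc

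The run stood exactly at the listed start in 13 of the 62 members found in the RefSeq table (21.0%, exact 95% interval 11.7 to 33.2%), against 3.01% of all 27025 genes in it. Within 4 bases of the start, read in the direction of transcription, it was found in 28 of the 62 (45.2%) against 16.4% of all genes. Where a gene had several listed starts, any start with the run counted. The lines above give the start with the longest run. None of 69 mitochondrial ribosomal protein genes had the run at the start. The listed start can be some bases from the true cap. A line without capitals therefore says only that no such run begins exactly at the listed start. In the lines of Rpl12, Rps2, Rpl22l1 and Rps27l a run begins within 4 bases after it. In naive-like T barcodes, the median ratio to the keratin gate was 1.60 for the 12 compared members with the run at the start and 1.60 for the 44 without. In the macrophage gate the medians were 1.11 for 13 members and 1.04 for 46.

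The members took the largest share of all gene UMIs in the T and B gates and nearly the same share in the macrophage and keratin gates. Pooled over barcodes, the share was 16.7% in the keratin gate, 27.9% in naive-like T, 22.3% in effector T, 17.2% in macrophage and 22.2% in B barcodes. The exact intervals are narrow (27.7 to 28.0% in naive-like T) and say nothing of the spread between samples. In the keratin gate the tags had 16.3% (U2), 17.5% (U3), 17.4% (U4), 17.1% (D0), 16.8% (D1) and 15.7% (D4), so all 6 samples lay close together.

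Among tags with at least 20 barcodes, naive-like T barcodes had 19.7% in U2, 32.5% in U3 and 25.3% in D1. Effector T barcodes had 21.0% in U2, 20.5% in D0 and 23.2% in D1. Every one of these T values lay above all 6 values of the keratin gate, while the naive-like and effector values overlapped each other. Macrophage barcodes had 16.9% in U2, 21.4% in U3, 18.3% in U4, 16.1% in D0 and 17.0% in D1, which overlapped the keratin gate. Of the 92 B barcodes 81 came from U3, at 23.0%, so the B values are in effect those of 1 sample.

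**Figure D1:**
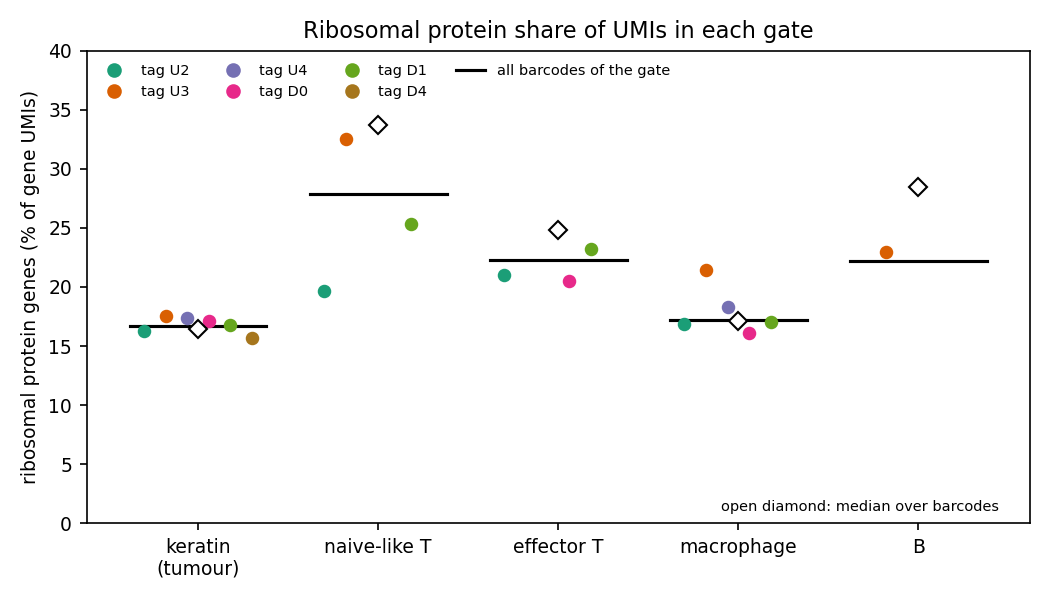
Share of gene UMIs from the 82 ribosomal protein genes (vertical axis, percent) in each gate. Points are tags with at least 20 barcodes, lines the value over all barcodes of the gate, and open diamonds the median over single barcodes; the keratin gate's tags lie between 15.7 and 17.5%, the naive-like T gate's between 19.7 and 32.5%.

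Taken per barcode, so that deep barcodes weigh no more than shallow ones, the medians were 16.4% in the keratin gate, 33.7% in naive-like T, 24.8% in effector T, 17.1% in macrophage and 28.5% in B barcodes. The immune gates held some deep barcodes with keratin and Sox9 transcripts: leaving out immune barcodes with any Krt8 or Krt18 UMI lowered Sox9 from 399 to 27.7 CPM in naive-like T, from 203 to 18.5 in effector T, from 319 to 12.4 in macrophage and from 610.4 to 237 in B barcodes. The member shares were then 30.3%, 25.9%, 17.6% and 24.1%. The T and B gates thus stood above the keratin gate with and without these barcodes. Among barcodes of 1000 to 2000 UMIs, the share was 18.0% in 36 keratin-gate barcodes, 33.0% in 160 naive-like T, 24.3% in 120 effector T and 31.5% in 46 B barcodes.

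Tag U3 lay above the other 5 tags pooled in every gate. Its share was 17.5% against 16.5% in the other 5 tags together in the keratin gate, 32.5% against 22.6% in naive-like T, 31.1% against 21.8% in effector T, 21.4% against 17.0% in macrophage and 23.0% against 18.8% in B barcodes. The effector T value of U3 rests on 17 barcodes and the macrophage value on 20. In the B gate the other tags gave 11 barcodes, of which 9 were of U4 at 26.2%, above U3, and single barcodes of U2 and D1 had 7.27% and 6.98%. The median depth of U3 was below that of the other tags in naive-like T barcodes (1368.5 against 1679 UMIs). It was near theirs in macrophages (4174.5 against 4353.5). Among naive-like T barcodes of 1000 to 2000 UMIs, U3 had 38.2% in 108 barcodes and the other 5 tags 23.2% in 52. The treatment of U3 is unknown. The 6 tumour marker genes, mostly Sox9, stood at 31.7% of the keratin-gate level in U3 against 79.0% in the other tags in naive-like T barcodes, at 6.45% against 30.9% in effector T, at 64.1% against 47.2% in macrophage and at 83.0% against 84.4% in B barcodes, and their part in the higher shares was not tested.

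Naive-like T barcodes exceeded effector T barcodes by a ratio of 1.25 in the pooled share, but within tags it was 0.940 in U2 and 1.09 in D1, the tags with 20 barcodes in both gates. In U2 the tumour marker genes stood at 146% of the keratin-gate level in naive-like T and 32.4% in effector T barcodes, whose part was not tested. The ratio was 1.03 without U3, which gave 138 of the 225 naive-like T barcodes and 17 of the 241 effector T barcodes. Among barcodes of 1000 to 2000 UMIs from the other 5 tags, naive-like T had 23.2% and effector T 24.0%. With the barcodes that pass both T gates kept in both, naive-like and effector T barcodes had 25.8% and 22.3% pooled. By tag they had 21.2% and 20.7% in U2, 25.3% and 21.0% in D0, 22.1% and 21.4% in D1, 26.6% and 28.0% in U4 and 32.5% and 36.0% in U3, so the order differed between tags.

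Gene by gene, a member was compared where the mean of the 2 gates gave at least 10 UMIs in the smaller one, and was called higher or lower past a ratio of 1.5 in CPM. Rpl10l, Rpl39l and Rpl3l were compared nowhere, and Rpl10, Rps27, Rpl27 and Rps12 in only some comparisons, which left 75 members compared with the keratin gate in all 4 immune gates. These 4 comparisons share the keratin gate and are given side by side.

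In naive-like T barcodes 46 of 76 compared members were higher and 0 lower, against 24.2% of all 5589 compared genes higher and 30.2% lower (54.4% in either direction). All 46 had a ratio above 1, of any size, in each of the 3 tags compared, but without U3 only 21 members passed 1.5-fold, all among the 46. In effector T barcodes 23 of 78 were higher and 2 lower, against 23.8% and 23.5% of 7012 genes (47.3% in either direction). In the macrophage gate 3 of 79 were higher and 0 lower, against 21.2% and 24.3% of 9877 genes (45.4% in either direction), so fewer members than genes at large passed the ratio in either direction. The genes at large were not matched to the members in UMIs in any of these comparisons. Genes with few UMIs pass the ratio more easily by counting error, whose part was not tested. In B barcodes 19 of 75 were higher and 2 lower, against 15.8% and 31.1% of 3402 genes (46.9% in either direction), and without U3 6 were higher. The median member ratio was 1.62, 1.30, 1.06 and 1.27 in these 4 comparisons, beside 0.918, 0.992, 0.926 and 0.835 over all compared genes.

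Leaving out immune barcodes with a keratin UMI raised the number higher to 54 in naive-like T, 36 in effector T, 5 in macrophage and 32 in B barcodes. The share of all compared genes higher was not recounted without these barcodes or without U3. These recounts therefore have no background beside them and do not set the members apart from genes at large. Between naive-like and effector T barcodes 3 of 75 members were higher (Rps29, Rpl9 and Rpl12) and 0 lower, against 9.70% and 15.4% of 5586 genes (25.1% in either direction). Of these, only Rps29 had a ratio above 1 in both tags compared, and without U3 the ratios were 1.10 for Rps29, 1.58 for Rpl9 and 0.957 for Rpl12.

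**Figure D2:**
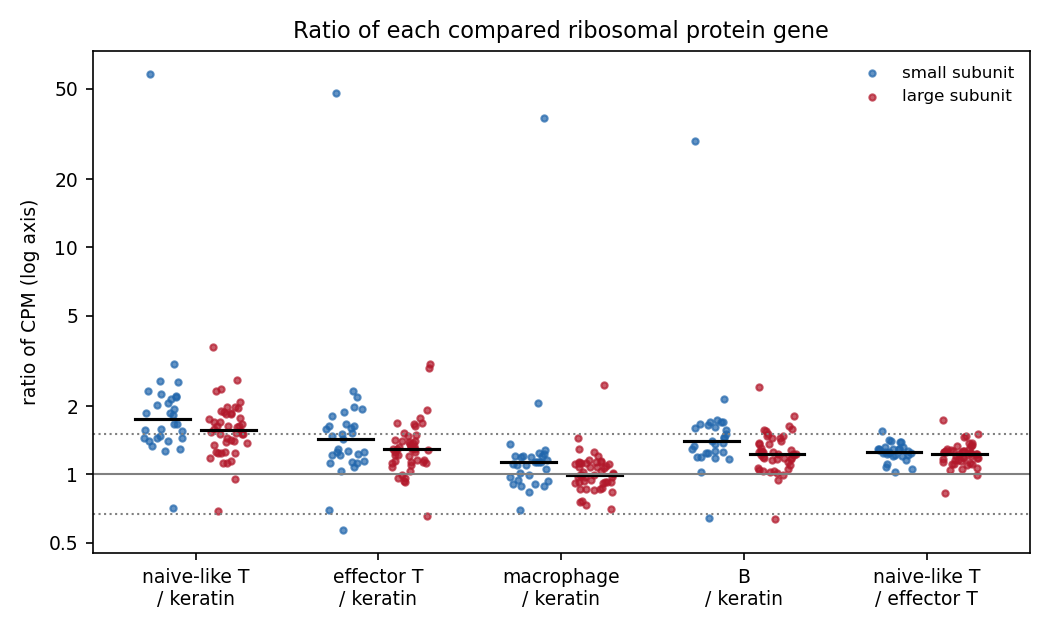
Ratio of CPM (log axis) for every compared member in the 5 comparisons, one point per gene, blue for the small and red for the large subunit; black bars are medians and dotted lines the ratio of 1.5 in either direction. The lone small-subunit point between 29.5 and 58.4 in the comparisons with the keratin gate is Rps2.

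Rps2, a core protein of the small subunit where the mRNA enters, stood furthest from the rest. In the keratin gate it had 21.7 CPM in U2, 26.5 in U3, 25.0 in U4, 23.8 in D0, 25.6 in D1 and 17.5 in D4. Naive-like T barcodes had 843 CPM in U2, 1627 in U3 and 751 in D1, and effector T barcodes 929 in U2, 927 in D0 and 1154 in D1. Macrophage barcodes had 908 in U2, 1338 in U3, 969.8 in U4, 902 in D0 and 789.8 in D1, and B barcodes of U3 had 765. No immune value came near those of the keratin gate.

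Pooled, Rps2 was 58.4-fold higher in naive-like T (1359 against 23.3 CPM), 48.1-fold in effector T, 37.2-fold in macrophage and 29.5-fold in B barcodes. It was the only member among the 42 genes at least 20-fold higher in all 4 immune gates, of 3328 genes compared in all 4. The others include the leukocyte genes Coro1a, Laptm5 and Cd52. Ptprc is also among them, but by definition, because the keratin gate asked for none of its UMIs. After thinning each barcode to 1000 UMIs, 2.27% of 5200 keratin-gate barcodes had an Rps2 UMI, against 75.0% of 212 naive-like T, 65.9% of 229 effector T, 62.0% of 392 macrophage and 61.7% of 60 B barcodes. Unthinned, the shares were 41.0%, 80.4%, 82.2%, 95.7% and 73.9%, at the depths given above.

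GENCODE M21 places Rps2 at chr17:24718116-24721929 and names 11 pseudogenes after it. How the counting treated reads that fit both a gene and its copies is not given in the labels or headers, and whether such reads bear on the difference between the gates was not tested. In all, 283 pseudogenes are named after 59 of the members, up to 24 for Rpl31, and 8 of the 11 members under 100 CPM in the keratin gate have at least 1. The levels of such members are uncertain.

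Rps29 and Rpl29 were the only other members higher in all 4 immune gates. Rps29 (chr12:69157722-69159186), a zinc-binding protein of the small subunit and a Diamond-Blackfan anaemia gene, ranged from 1308 to 1548 CPM over the 6 tags of the keratin gate. It had 2505 CPM in U2, 5666 in U3 and 3351 in D1 in naive-like T, 2497 in U2, 2534 in D0 and 3061 in D1 in effector T, between 2823 and 3560 over 5 tags in macrophage, and 3289 in U3 in B barcodes. Every immune value lay above the keratin gate, with pooled ratios of 3.08, 1.98, 2.06 and 2.16.

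Rpl29 (chr9:106429454-106431568), a small basic protein of the large subunit, ranged from 195 to 237 CPM over the tags of the keratin gate. It had 523 CPM in U2, 863 in U3 and 924 in D1 in naive-like T, 590.3 in U2, 463 in D0 and 858 in D1 in effector T, and between 528 and 669 in macrophage barcodes. Its pooled ratios were 3.66, 3.06, 2.48 and 2.44. Another 12 members were higher in 3 of the 4 immune gates, 8 of them Rps genes such as Rps7 and Rps19 (ratios in naive-like T of 2.56 and 2.32), and 28 members were higher in none. How many genes at large were higher in all 4 gates, in 3 or in none was not counted.

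**Figure D3:**
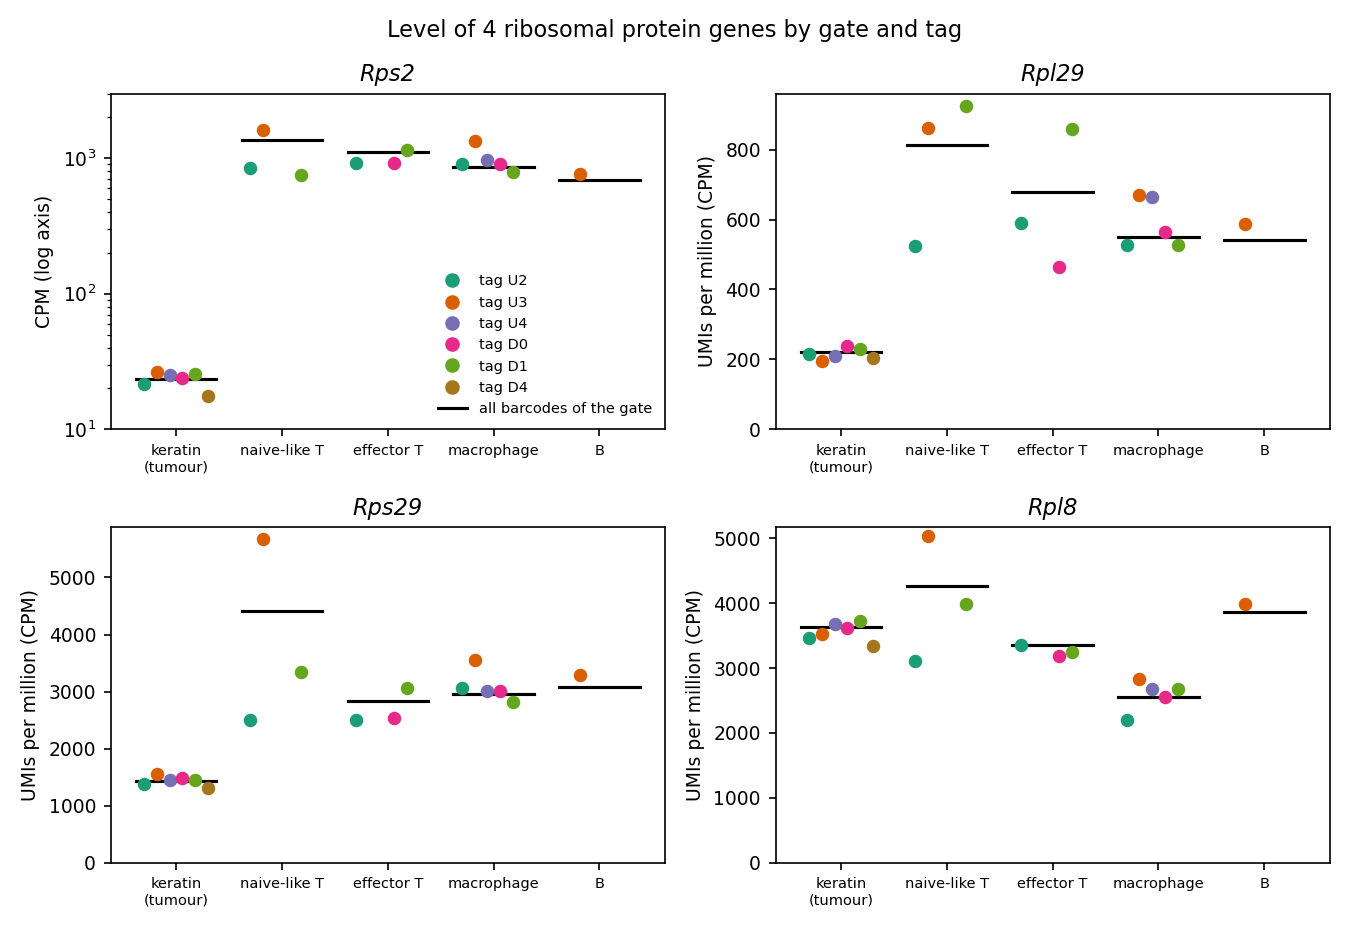
CPM of Rps2 (log axis), Rpl29, Rps29 and Rpl8 (linear axes from 0) by gate, with points for tags with at least 20 barcodes and lines for all barcodes of the gate. Rps2 lies between 17.5 and 26.5 CPM in the keratin gate and at 751 CPM or more at every immune point; Rpl8 is lower in macrophages than in the keratin gate.

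Some members ran the other way. Rpl8, a large-subunit protein next to the peptidyl transferase centre, had 3347 to 3728 CPM over the tags of the keratin gate, and in macrophages 2195 in U2, 2825 in U3, 2680 in U4, 2550 in D0 and 2680 in D1. These ranges did not overlap, and the pooled ratio was 0.705. Rpl30 and Rpl22l1 were also lower in all 5 macrophage tags than in the keratin gate of the same tag, with ratios of 0.736 and 0.754, none of them past 1.5-fold. Rps12 had the lowest macrophage ratio (0.696), from 34 UMIs, and was lower in 4 of 5 tags.

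Rpl7l1, a nucleolar relative of Rpl7, was past 1.5-fold lower in effector T (39.3 CPM, against 44.8 to 73.3 over the tags of the keratin gate, ratio 0.655, interval 0.445 to 0.930) and in B barcodes (38.1 CPM, 0.636, 0.305 to 1.17). Its counts were small, 31 and 10 UMIs, and by tag it was lower in 2 of 3 effector tags. Rps12 was past 1.5-fold lower in effector T from 8 UMIs (0.567, 0.245 to 1.12). Rps27l, a paralogue of Rps27 that p53 induces, had 464 CPM in the keratin gate and 329.9, 323, 454 and 298 in naive-like T, effector T, macrophage and B barcodes. Only its B ratio of 0.641 (0.507 to 0.80) passed 1.5-fold. Rpl41, whose product is one of the shortest known proteins, was nearly level across the lymphocyte gates, at 4586 CPM in the keratin gate and 4391, 4414 and 4765 in naive-like T, effector T and B barcodes.

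Small-subunit genes exceeded the keratin gate more than large-subunit genes did. Their summed ratios were 1.83 against 1.55 in naive-like T, 1.43 against 1.26 in effector T, 1.10 against 0.976 in macrophage and 1.43 against 1.25 in B barcodes. Large-subunit UMIs per small-subunit UMI were 1.44 in the keratin gate (1.42 to 1.45 over the 6 tags), 1.22 in naive-like T (1.35 in U2, 1.17 in U3, 1.31 in D1), 1.27 in effector T (1.29 in U2, 1.30 in D0, 1.26 in D1) and 1.29 in macrophages (1.25 to 1.31 over 5 tags). The B gate had 1.27. No immune tag with 20 barcodes reached the lowest keratin-gate tag. Without immune barcodes that hold a keratin UMI, the ratios were 1.17, 1.22, 1.21 and 1.18. UMI counts depend on how well each transcript is captured, so these ratios are not the ratio of the subunits.

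Among members with a defined second role, Rps6, the target of S6 kinase downstream of mTOR, had 829 to 954 CPM over the tags of the keratin gate and 1122 in U2, 1931 in U3 and 1483 in D1 in naive-like T barcodes. Rplp0, the base of the stalk that recruits translation factors, had 3022 to 3457 CPM over the keratin-gate tags and 2782 to 3701 over the macrophage tags, and these overlapped. Its partner Rplp2 was 1.64-fold higher in effector T barcodes (1287 against 785 CPM) and Rplp1 1.25-fold. Rpl5 and Rpl11, which bind Mdm2 when ribosome assembly fails, had naive-like T ratios of 1.91 and 1.85. Rpl5 reached 2957 CPM in U3 but 1164 in U2, inside the keratin-gate range of 1130 to 1306. Rps27a, made as a fusion with ubiquitin, had a ratio of 1.44 in naive-like T and of 1.10 in macrophages.

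Of the members linked to Diamond-Blackfan anaemia, a failure of red cell production caused by loss of 1 copy of a ribosomal protein gene, 10 of 16 compared were higher in naive-like T, 8 of 18 in effector T, 1 of 18 in macrophage and 5 of 16 in B barcodes, beside 24.2%, 23.8%, 21.2% and 15.8% of all compared genes, and none was lower. Their medians of 1.61, 1.29, 1.13 and 1.27 were close to those of all members.

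In several pairs of paralogues the share of the second copy differed between gates. Rpl22, needed for the development of alpha-beta T cells, and Rpl22l1, which it represses in mice, are interchangeable parts of the large subunit. Rpl22l1 gave 43.9% of the pair's UMIs in the keratin gate, with 45.9% in U2, 43.3% in U3, 42.9% in U4, 41.7% in D0, 42.5% in D1 and 44.7% in D4. Macrophages had 36.1% in U2, 34.9% in U3, 33.8% in U4, 30.7% in D0 and 35.0% in D1, all below every keratin-gate tag, and 34.7% pooled. Naive-like T barcodes had 34.6% in U2, 40.7% in U3 and 30.2% in D1, also below. Effector T barcodes had 41.8% in U2, 42.1% in D0 and 32.0% in D1, which overlapped the keratin gate, and the B gate had 36.9%.

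**Figure D4:**
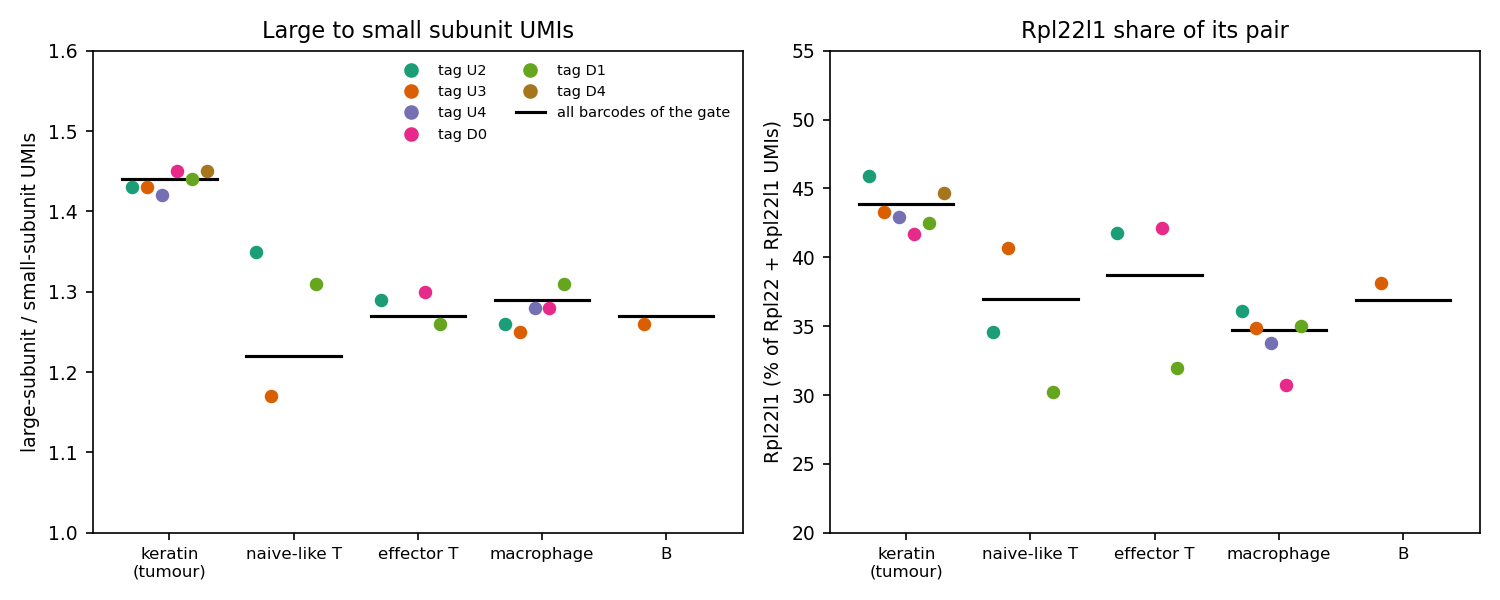
Left, large-subunit UMIs per small-subunit UMI; right, Rpl22l1 as a percent of the Rpl22 and Rpl22l1 UMIs, by gate, with points for tags with at least 20 barcodes and lines for all barcodes. The axes do not start at 0. The keratin gate is highest on the left (1.42 to 1.45 by tag), and macrophages are lowest on the right in the pooled value (34.7%).

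Rpl7l1 gave 4.32% of the Rpl7 pair in the keratin gate and 1.57%, 2.05%, 3.25% and 2.06% in naive-like T, effector T, macrophage and B barcodes. By tag the keratin gate had 3.53 to 5.05%, which overlapped macrophages (2.84 to 4.33%) and effector T (0.769 to 3.70%) but not naive-like T barcodes (1.20 to 2.45%), from 2 to 10 UMIs of Rpl7l1 in each naive-like tag. Rps27l gave 98.3% of its pair in the keratin gate and 97.1%, 94.8%, 98.0% and 94.0% in the immune gates. That share rests on few Rps27 UMIs, 1133 in the keratin gate and 5 to 25 in the immune gates, and 5 UMIs in the B gate. It also leaves out Rps27rt, a feature outside the chosen symbols that had more UMIs than Rps27 in every gate. Rps27rt had 44.7 CPM in the keratin gate and 152, 111, 60.3 and 103 in naive-like T, effector T, macrophage and B barcodes. Rps27 had 8.11, 9.88, 17.7, 9.14 and 19.1 CPM in the same order. The share of Rps27l with Rps27rt counted would be lower and was not computed. Rpl36al, outside the chosen symbols, gave 41.6% of its pair with Rpl36a in the keratin gate, 35.4% in naive-like T, 42.2% in effector T, 51.2% in macrophage and 44.3% in B barcodes. Rpl39l, known from testis, gave 6 UMIs in the keratin gate and 1 to 4 in each immune gate, beside 728768 of Rpl39 in the keratin gate and 1665 to 13394 in the immune gates. Rpl3l, known from muscle, gave 4 UMIs in the keratin gate and 2 in macrophages, and Rpl10l 3 and 1, with none in the naive-like T, effector T and B gates, where 3 counts, the limit used for a count of 0, are 5.93, 3.80 and 11.4 CPM.

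Over the 6 samples of the keratin gate the members varied little. Of 76 members with at least 1000 UMIs, the highest tag exceeded the lowest by a median ratio of 1.15, against 1.31 over all 7056 genes above the same minimum. These genes were not matched to the members in UMIs, which reached 500457 for Rpl39. Counting error widens the ratio where UMIs are few, and its part in the difference was not tested. Past 1.5-fold were 3 members (3.95%) against 20.5% of the genes. These were Rpl7l1 (44.8 CPM in D4 to 73.3 in U4), Rps12 (13.7 in U3 to 20.9 in D4) and Rps2 (17.5 in D4 to 26.5 in U3). They had few UMIs for members, 5807, 1674 and 2257. D4 was the lowest tag for 57 of the 76 members, and U3 or U4 the highest for 66, and these tags were also lowest and highest in the summed share.

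Outside the chosen symbols stood the lists of elongation and other TOP genes, initiation factors, ribosome biogenesis and mitochondrial ribosomal proteins. Their median log2 ratios to the keratin gate were below 0 in all 4 comparisons, unlike those of the members. The medians of all compared genes were below 0 as well. CPM is a share of all gene UMIs, so a larger member share lowers the CPM of other genes, which was not corrected in these values. Of the ribosomal proteins outside the symbols, Fau had ratios of 1.76, 1.51, 1.27 and 1.62 and Rpsa of 1.67, 1.43, 0.840 and 1.23 in naive-like T, effector T, macrophage and B barcodes. Of 18 elongation factors and other genes with TOP transcripts, 2 were higher in naive-like T and 1 in effector T, 0 in macrophage (with 2 lower) and 1 in B barcodes. These counts lay below the 24.2%, 23.8%, 21.2% and 15.8% of all compared genes higher. The medians of these TOP genes on the log2 scale were -0.07, -0.07, -0.28 and -0.02. Over all compared genes the medians were -0.12, -0.01, -0.11 and -0.26, so the TOP genes lay above them in naive-like T and B barcodes only. The summed levels of the TOP genes had ratios of 1.18, 1.03, 0.880 and 1.03. Eef1a1, the factor that brings tRNA to the ribosome, had ratios of 1.36, 1.25, 0.998 and 1.12.

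Ribosome biogenesis genes, which build the subunits in the nucleolus, had medians of -0.42, -0.29, -0.65 and -0.35, with 7 of 22, 6 of 27, 17 of 29 and 3 of 14 compared genes lower, beside 30.2%, 23.5%, 24.3% and 31.1% of all compared genes, so that only the macrophage count stood well above the background. Eif6, which keeps the new large subunit from joining too early, had ratios of 0.459, 0.540, 0.548 and 0.696. Mitochondrial ribosomal proteins, which serve the separate ribosome of the mitochondrion, had medians of -0.37, -0.19, -0.30 and -0.42, with 22 of 69, 10 of 73, 13 of 77 and 15 of 53 lower, near or below the same background. Initiation factors had medians of -0.19, -0.23, -0.23 and -0.23, with 4 of 22, 3 of 23, 4 of 23 and 7 of 22 lower, near or below that background. Of 13 regulators of ribosome production, such as Myc and Mtor, 3 of 9 compared were higher and 3 lower in naive-like T, 3 and 2 of 11 in effector T, 2 and 2 of 12 in macrophage and 1 and 2 of 6 in B barcodes. Of all compared genes 24.2%, 23.8%, 21.2% and 15.8% were higher, so these few regulators do not stand out. Among the regulators Eif4ebp1, an mTOR target that restrains translation, had ratios of 0.429, 0.429, 0.921 and 0.563. All compared genes had medians of -0.12, -0.01, -0.11 and -0.26, so the biogenesis list lay below them in all 4 gates while both subunits' members lay above.

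**Figure D5:**
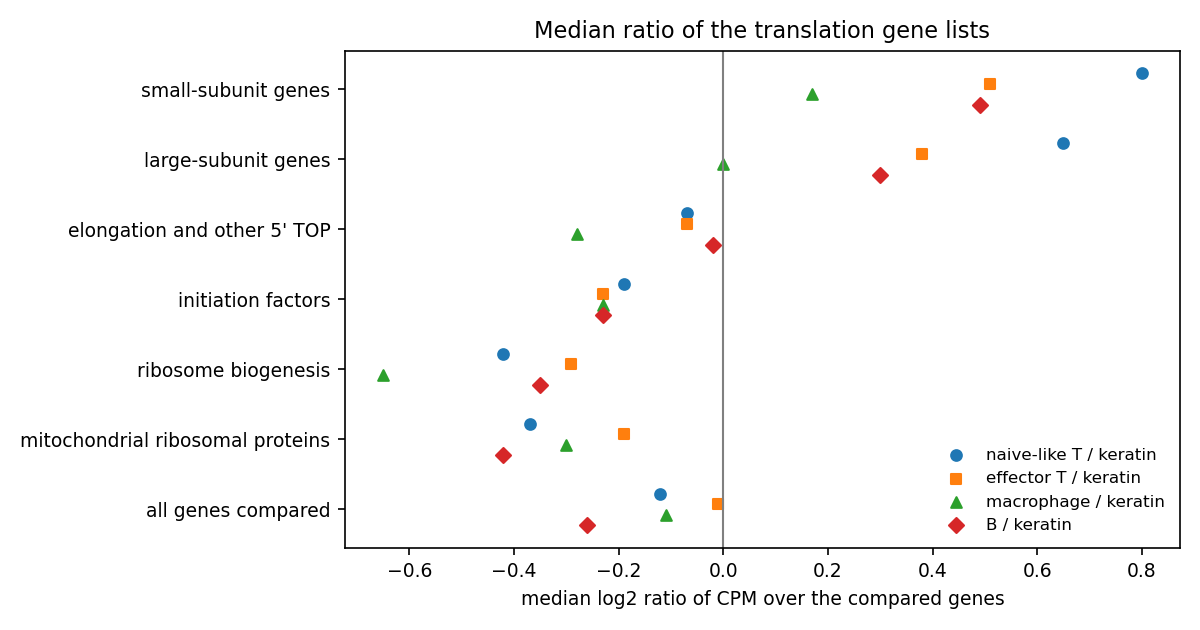
Median log2 ratio of CPM to the keratin gate (horizontal axis) over the compared genes of each list, with one marker shape per immune gate. Small-subunit and large-subunit members lie at 0 or above in all 4 gates, and ribosome biogenesis and mitochondrial ribosomal proteins lie below 0 in all 4.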

How the data were processed

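The authors' deposited matrix holds UMI counts (unit: counts) of 31053 genes and 6 antibody tags in 9747 barcodes; the submitters' processing notes name Cell Ranger and mm10, and the software version, per the file headers, was 3.1.0. No annotation is named in the sources used here. The filter kept 8784 barcodes, those with 500 genes or more and less than 15% mitochondrial UMIs. HTODemux (Seurat 5.3.0, R 4.3.3, positive quantile 0.99, seed 42) marked 865 barcodes positive for more than 1 tag, which were removed as doublets, and left 7919, of which 5590 had 1 tag. Doublets within a tag remain. Counts were summed over the barcodes of a gate and scaled per 1000000 gene UMIs (CPM), and 6171 barcodes passed exactly 1 gate.

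Ratios carry exact conditional 95% intervals, shares exact Clopper-Pearson and levels exact Poisson intervals, for counting error only (Python 3.11.15, scipy 1.17.1). The calculations were tested on simulated counts. Tags needed 20 barcodes in a gate. Members and gene lists were chosen with earlier results of these data known. Named genes are the paralogue pairs, stalk genes, Rps6, Rpl5, Rpl11, Rps27a, the 3 highest and 3 lowest ratios per comparison, the 10 members with most UMIs and 3 genes per other list (1 gene and its list's counts are not reported here); Rps7 and Rps19 and the leukocyte genes were chosen after their values were seen. Sequences come from RefSeq (62 of 82 members matched by symbol) and positions from GENCODE M21 (GRCm38; all 82 matched by identifier).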

Additional observations from a re-analysis of the deposited data

Results flagged for a closer look

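Values were tested for an outlying sample only in the keratin gate (6 tags) and the macrophage gate (5 tags). The T and B gates had too few tags. Of 77 values 6 stood apart, where chance gives about 1 in 20. Values of the same barcodes are not independent, so that rate is only a rough guide. All 6 were in the macrophage gate. In U3, which had 20 barcodes there, Rpl12 had 3395 CPM (2138 to 2345 in the others), Rpl15 2082 (1624 to 1729), Rpl5 1917 (1276 to 1436) and Rplp2 1157 (836 to 917), each above the other 4 tags. In the same tag Rps27l gave 93.9% of its pair with Rps27 (97.3 to 98.7% in the others). That share rests on 3 UMIs of Rps27 and 46 of Rps27l, and its interval of 83.1 to 98.7% covers the other tags. In D0 Rplp1 had 2118 CPM, below the 2584 to 2767 of the others.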

How the results depend on the processing

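Over 21 alternative settings, 194 of 285 recomputed main values stayed close to the original. The settings below moved the others, and their causes were not tested. A change of direction was looked for only in summed ratios past 1.5-fold, not in counts. Only naive-like T against the keratin gate (1.66) met that condition, and it did not reverse. The share of all genes called was not recounted under these settings. No paired analysis was possible because the series is 1 pool, its 2 libraries are not groups to compare, and no result comes from a test; gates are set side by side within tags in the values above.

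For naive-like T against the keratin gate (summed ratio 1.66; 46 members higher, 0 lower), a minimum of 1000 genes gave 1.28, 14 and 1, keeping doublets 1.33 and 19 higher, the median over barcodes 2.06, a ratio of 2 16 higher, and a minimum of 200 genes, no keratin UMI and the median over tags 1 lower each, with 2 lower at 1000 to 5000 UMIs. Leaving out a tag gave 1.35 to 1.79, 21 to 57 higher and 0 to 2 lower.

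For effector T (1.33; 23 and 2), no keratin UMI gave 1.55 and 36 higher, 1000 to 5000 UMIs and scaling by UMIs that are not of a member 1.43 each, and the median over barcodes 1.51. A minimum of 1000 genes gave 14 higher and 1 lower, keeping doublets 15 and 0, a ratio of 2 5 and 0, barcodes of several gates and a minimum of 50 UMIs 0 lower, and the non-member scaling, the median over tags and intervals apart 1 lower. Leaving out a tag gave 1.30 to 1.39, 19 to 24 higher and 0 to 2 lower.

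For macrophage (1.03; 3 and 0), no keratin UMI gave 5 higher and 4 lower, 1000 to 5000 UMIs 8 lower, and a minimum of 1000 genes, barcodes of several gates and the median over tags 1 lower. Leaving out a tag gave 1.02 to 1.04, 3 to 4 higher and 0 to 1 lower.

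For B (1.32; 19 and 2), a minimum of 200 genes gave 1.44 and 30 higher, of 1000 genes 1.09, 1 higher and 0 lower, doublets kept 1.21, 8 and 1, tagged barcodes 1.34, several gates 1.28 and 0 lower, no keratin UMI 1.44, 32 and 1, 1000 to 5000 UMIs 1.65, 44 and 1, non-member scaling 1.42 and 0 lower, the median over tags 1.31 and 1 lower, and the median over barcodes 1.74. A ratio of 2 gave 3 higher and 0 lower, and a minimum of 50 UMIs and intervals apart 1 lower. Leaving out a tag gave 1.12 to 1.37, 6 to 23 higher and 0 to 2 lower.

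For naive-like against effector T (1.25; 3 and 0), a minimum of 1000 genes gave 1.01 and 1 higher, doublets kept 1.05 and 1, the median over tags 1.02 and 1 lower, the median over barcodes 1.36, non-member scaling 7 higher, a minimum of 3 UMIs 5 higher and 2 lower, and a ratio of 2 0 higher. Leaving out a tag gave 1.03 to 1.28, 1 to 5 higher and 0 lower.

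Among named ratios past 1.5-fold, those of 5 genes crossed 1: Rpl27 in naive-like T (0.659 without U3, up to 2.11 without another tag), Rps27 in effector T (0.720 at 1000 genes), Rps12 in B (0.804 without keratin UMIs, 0.955 at 1000 to 5000 UMIs), and between the T gates Rps29 (0.971 at 1000 genes) and Rpl12 (0.981 at 1000 genes, 0.949 as the median over tags, 0.957 without U3, up to 1.75 without another tag).
The median over barcodes was added after seeing the data. At these depths, ratios of members under about 50 UMIs in a gate have wide counting intervals.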
